A study of Mus musculus with 4 samples.

Results

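Fos, Fosb, Jun, Junb, Jund, Egr1, Ier2, Dusp1, Atf3 and Zfp36 are immediate early response genes, measured here in mouse pro-B cells as a possible sign of how the cells were handled. They were chosen by name, as the probe sets whose only gene symbol is one of these 10 genes, and each gene had 1 such probe set. They are 10 of the 19937 genes that a single-symbol probe set represents on the array. RNA came from bone marrow of wild-type C57BL/6 mice, from which pro-B cells, the stage of heavy-chain gene rearrangement, had been isolated by their B220 and c-Kit surface proteins (B220+ c-Kit+ in the labels; the methods give the gate as B220-low and c-Kit+). It was hybridized to 4 Affymetrix Mouse Gene 1.0 ST arrays, replicates 1 to 4, which form 1 group, with no transgene and no treatment in the labels. The age of the mice, the time from marrow harvest to lysis and whether each replicate came from its own mouse are not stated by the labels or the methods. With 1 group there is no comparison between conditions and no test of one, and no unsorted or stimulated cells stand beside these arrays.

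Immediate early genes are transcribed within minutes of a stimulus, from transcription factors that already lie in the cell and without new protein synthesis. Growth factors, antigen receptors and stress act through MAP kinases on serum response factor (SRF), its ternary complex partners and CREB at their promoters, and the messenger RNAs are short-lived. Enzymatic dissociation, cooling and warming, and sorting are known to induce several of them, so they are often read as a mark of handling. FOS and JUN proteins form the dimeric AP-1 factors, EGR1 is a zinc finger factor, ATF3 is a stress-induced partner of the same basic leucine zipper class, IER2 is a nuclear protein of the early response, DUSP1 is a phosphatase that switches MAP kinases off, and ZFP36 (tristetraprolin) directs messenger RNAs with AU-rich elements to decay.

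To show part of the control regions in which these responses are known to be read, RefSeq promoters for GRCm38.p6 were searched. Of the 10 genes 8 had an entry (Egr1 and Ier2 had none). The 250 bases before the annotated start were searched on both strands for the cAMP response element (CRE) TGACGTCA, its core TGACG, which each full CRE also holds, the AP-1 site TGANTCA, the TATA box TATAAA, the EGR site GCGTGGGCG, and the CArG box bound by SRF. Among the 8 promoters, 5 held a CRE core (17.8% of all 32851 promoters did), 1 a full CRE (1.55%), 1 a TATA box (12.4%) and 1 a CArG box (1.47%). The AP-1 site (6.75%) and the EGR site in the letters given above (0.536%) were found in 0 of the 8. Other spellings of the EGR site were not searched, so this does not show that the promoters lack one. The 4 promoters shown are those of Fos and Fosb, close relatives that ranked the arrays differently, and of Dusp1 and Zfp36. Within the 250 bases searched, Dusp1 holds the only full CRE and Zfp36 the only CArG box among the 8. Sites farther before the start were not searched, so a gene without a match here may hold one there. Capitals mark the matches, and each line reads 5′ to 3′ on the strand of the gene.
Fos, chr12:85473640-85473889, plus strand: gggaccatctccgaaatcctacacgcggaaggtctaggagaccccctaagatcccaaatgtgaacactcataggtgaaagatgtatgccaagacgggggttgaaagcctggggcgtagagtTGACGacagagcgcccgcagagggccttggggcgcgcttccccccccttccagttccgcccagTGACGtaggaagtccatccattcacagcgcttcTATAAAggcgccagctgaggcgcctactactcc
Fosb, chr7:19310046-19310295, minus strand: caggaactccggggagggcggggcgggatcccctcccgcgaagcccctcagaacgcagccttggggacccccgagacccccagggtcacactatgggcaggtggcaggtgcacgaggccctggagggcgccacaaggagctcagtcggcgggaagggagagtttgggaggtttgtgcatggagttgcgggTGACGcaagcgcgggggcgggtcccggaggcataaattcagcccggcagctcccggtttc
Dusp1, chr17:26508473-26508722, minus strand: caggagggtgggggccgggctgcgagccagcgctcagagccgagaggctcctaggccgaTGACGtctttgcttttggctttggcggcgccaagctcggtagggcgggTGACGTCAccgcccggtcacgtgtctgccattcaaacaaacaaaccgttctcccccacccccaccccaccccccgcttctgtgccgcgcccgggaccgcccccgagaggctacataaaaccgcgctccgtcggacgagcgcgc
Zfp36, chr7:28379229-28379478, minus strand: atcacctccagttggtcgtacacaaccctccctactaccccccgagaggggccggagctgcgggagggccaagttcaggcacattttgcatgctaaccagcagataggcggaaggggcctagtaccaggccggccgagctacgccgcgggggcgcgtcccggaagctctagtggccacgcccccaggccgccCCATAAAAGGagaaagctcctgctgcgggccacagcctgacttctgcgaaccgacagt
In Fos the CRE cores begin 129 and 66 bases before the start and the TATA box 33 bases before it. Fosb has 1 CRE core, 60 bases before the start. The full CRE of Dusp1 begins 143 bases before the start, with a further core at 191 bases. The CArG box of Zfp36 begins 58 bases before the start. A match of letters is a description and does not show that a factor is bound there.

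Some features of the arrays as a whole bear on these genes. Replicate 3 stood apart in sex-linked RNA, with Xist at a log2 value of 5.48 against 13.04 to 13.17 on the other arrays. Its RNA therefore did not come from the same animal as theirs. Whether the other replicates came from separate animals is not stated, and the source of the spread among them was not tested. Of early B-cell markers 16 of 17 with a probe set lay above background on every array (Rag2 did not pass), and so did 17 of 17 granulocyte and monocyte markers and 12 of 12 erythroid markers, where 63.5% of all genes did. The B220 and c-Kit gate is meant to remove mature granulocytes and erythroid cells, and the methods state a high purity of sorted cells on reanalysis by flow cytometry, not given for each array. The erythroid markers were lower on replicate 1 than on the others. In bulk RNA of this kind, fewer cells of a type and less RNA per cell cannot be told apart.

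All 10 immediate early genes lay above background on every array. Background was judged on each array from 1246 probe sets for chemosensory receptors (olfactory, vomeronasal and taste), genes assumed not to be transcribed in marrow cells. Their 95th percentile served as the line, at log2 values of 6.53, 6.62, 6.54 and 6.59 on replicates 1 to 4, and 63.5% of all genes passed it on every array. Dusp1 cleared the line by at least 3.21 on the log2 scale and Zfp36 by at least 2.54, whereas Fosb cleared it by only 0.04 on replicate 4 and Egr1 by 0.19 on the same array. With the 99th percentile as the line, at 7.17 to 7.26, 8 of the 10 passed. The share of all genes passing that line was not taken, so this count has no comparison. Fosb was then above the line on 0 of 4 arrays and Egr1 on 1 of 4. Detection of these 2 genes is therefore the least certain, and levels of different probe sets are not compared with each other.

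**Figure D1:**
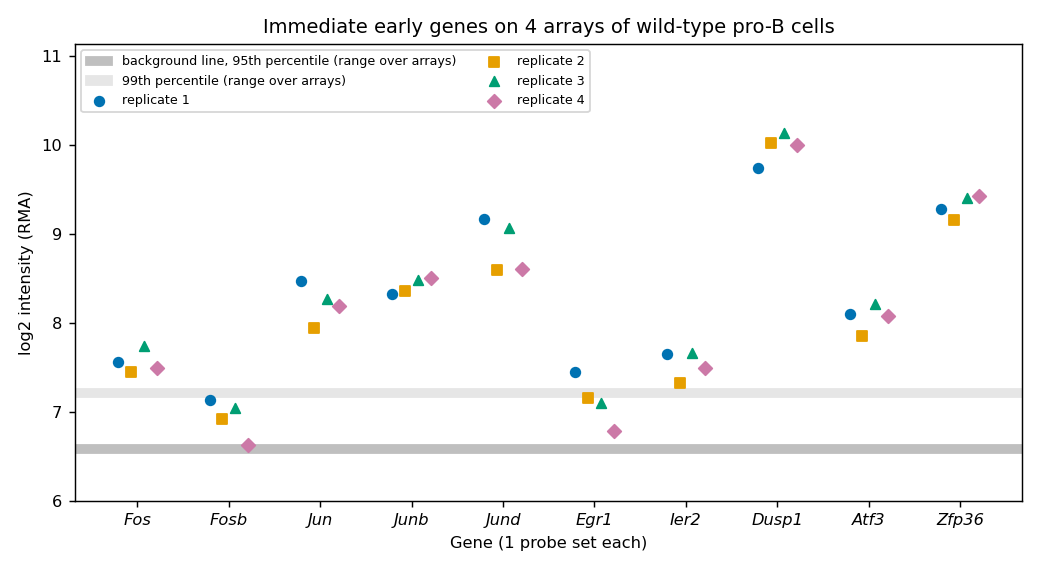
Log2 intensity (vertical axis) of the 10 immediate early genes (horizontal axis) on each of the 4 arrays; each point is 1 array, and the grey bands span the 95th and 99th percentiles of silent receptor genes over the arrays. Fosb lies between 6.63 and 7.14, next to the background line, and Dusp1 between 9.74 and 10.14; heights of different genes are not comparable.

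The FOS family holds Fos, the founding AP-1 subunit, and Fosb, its close relative. Fos had log2 values of 7.57, 7.45, 7.74 and 7.49 on replicates 1 to 4, a mean of 7.56 ± 0.13 (SD, n = 4). Replicate 3 was the highest, and the other 3 arrays lay within 0.12 of each other on the log2 scale. Fosb had values of 7.14, 6.92, 7.04 and 6.63, a mean of 6.93 ± 0.22 (SD, n = 4). Here replicate 4 was low and replicate 1 the highest, so the relatives did not rank the arrays alike.

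Within the JUN family, Jun encodes the main DNA-binding partner of FOS, and Junb and Jund encode partners with weaker or opposing activity in several settings. Jun had log2 values of 8.47, 7.94, 8.28 and 8.19, a mean of 8.22 ± 0.22 (SD, n = 4). Replicate 2 was low and replicate 1 high. Junb had values of 8.33, 8.37, 8.49 and 8.51, a mean of 8.42 ± 0.09 (SD, n = 4), the smallest SD of the 10 genes. Replicates 1 and 2 lay just below replicates 3 and 4, by no more than 0.18 on the log2 scale. Jund had values of 9.18, 8.59, 9.06 and 8.61, a mean of 8.86 ± 0.30 (SD, n = 4), the largest SD of the 10. Its arrays fell into a higher pair, replicates 1 and 3, and a lower pair, replicates 2 and 4.

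Atf3, the stress-induced zipper factor, had log2 values of 8.10, 7.86, 8.22 and 8.08, a mean of 8.06 ± 0.15 (SD, n = 4). Replicate 2 was the lowest array, as it was for Jun and Jund. Egr1, the zinc finger factor, had values of 7.45, 7.15, 7.10 and 6.78, a mean of 7.12 ± 0.27 (SD, n = 4), which places replicate 1 at the top and replicate 4 at the bottom, the order seen in Fosb at both ends. Ier2 had values of 7.65, 7.32, 7.66 and 7.49, a mean of 7.53 ± 0.16 (SD, n = 4). Replicates 1 and 3 were all but equal there and replicate 2 was the lowest.

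The 2 genes whose products end the response lay well clear of the background line. Dusp1, the MAP kinase phosphatase, had log2 values of 9.74, 10.02, 10.14 and 10.01, a mean of 9.98 ± 0.17 (SD, n = 4). Replicate 1 was the low array, in contrast to Egr1, Fosb, Jun and Jund, for which it was the high one. Zfp36, the decay factor, had values of 9.28, 9.16, 9.41 and 9.43, a mean of 9.32 ± 0.13 (SD, n = 4), with replicates 3 and 4 highest.

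The spread of these genes over the arrays was modest in size but mostly above that of the typical gene. From the lowest to the highest array the log2 difference was 0.67 for Egr1, or 1.59-fold, 0.58 for Jund, 0.52 for Jun (1.44-fold) and 0.51 for Fosb (1.42-fold). It was 0.40 for Dusp1, 0.36 for Atf3, 0.34 for Ier2, 0.29 for Fos, 0.27 for Zfp36 and 0.18 for Junb. The median range was 0.38 on the log2 scale against 0.25 over the 12658 genes above background, and the median SD was 0.16 against 0.11, with 9 of 10 SDs above that median. A range of at least 0.5 was reached by 4 of 10 genes, where 11.5% of all genes above background reached it. These counts describe the lists and carry no test.

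That count of 4 rested on replicate 1 and on values near the threshold. Without replicate 1, 0 of 10 genes had a range of at least 0.5 (4.62% of all genes), Jund being closest at 0.47. Without replicate 4 the count was 2, Jun and Jund (8.28% of all genes). After quantile normalization, median centring or cyclic loess between the arrays it was 2 in each case, Jund and Egr1, while 11.1%, 11.4% and 11.2% of all genes reached that range. It was 3 without replicate 2 (8.7% of all genes) and 4 without replicate 3 (9.39%). Over the 3 normalizations the ranges of Jun and Fosb were no lower than 0.48 and 0.47, whereas leaving out 1 array took that of Jun down to 0.28 (without replicate 2) and that of Fosb down to 0.21 (without replicate 4).

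**Figure D2:**
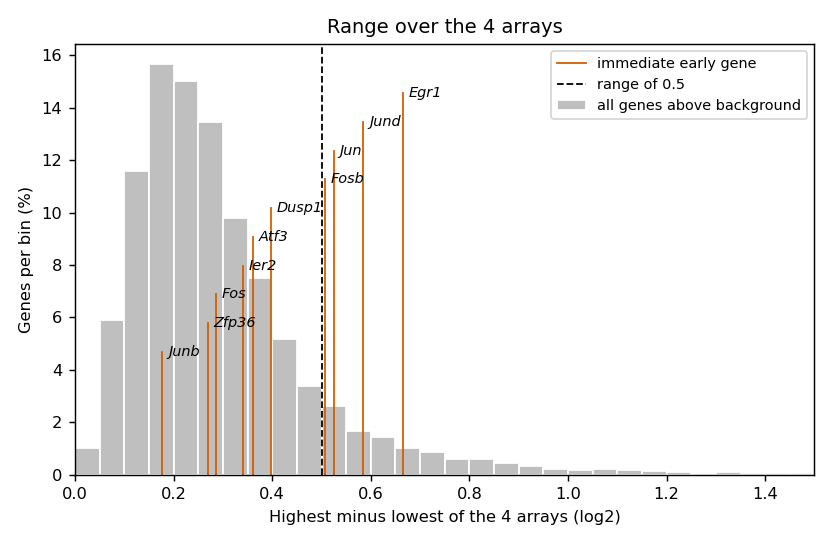
Range over the 4 arrays (horizontal axis, highest minus lowest log2 value) for all 12658 genes above background (grey bars, percent of genes per bin of the vertical axis; the 0.45% of genes beyond 1.5 are not drawn) and for the 10 immediate early genes (lines, whose heights carry no value). Egr1, Jund, Jun and Fosb lie to the right of the dashed line at 0.5, and Junb at 0.18 lies left of the median of 0.25.

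To ask whether the genes moved as one, the value on each array was set against the mean of the other 3 arrays. This difference, the shift, had a median over the 10 genes of 0.11 on replicate 1, -0.18 on replicate 2, 0.16 on replicate 3 and -0.05 on replicate 4 on the log2 scale, where the median over all genes above background lay between -0.02 and 0.01. On replicate 2, 8 of 10 genes had a shift below 0 (50.2% of all genes), the exceptions being Egr1 at 0.05 and Dusp1 at 0.06. On replicate 3, 9 of 10 had a shift above 0 (52.3% of all genes), and Egr1 at -0.03 was the exception. On replicate 1, 7 of 10 had a shift above 0 (52.2% of all genes), with Junb, Dusp1 and Zfp36 below it and Fos above it by only 0.01. After quantile normalization, median centring or cyclic loess it was 6 of 10 on that array, and the share of all genes was not taken there. On replicate 4, 6 of 10 had a shift below 0 (54.5% of all genes).

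Replicate 2 was the lowest array for Fos, Jun, Jund, Ier2, Atf3 and Zfp36, 6 of 10 genes, where it was the lowest for 22.9% of all genes above background. Replicate 1 was the lowest for Junb and Dusp1 (29% of all genes), and replicate 4 for Fosb and Egr1 (28.1%), while replicate 3 was the lowest for 0 of 10 (20%). At the other end, replicate 1 was the highest for Fosb, Jun, Jund and Egr1 (33.2% of all genes), replicate 3 for Fos, Ier2, Dusp1 and Atf3 (23%), and replicate 4 for Junb and Zfp36 (18.9%), while replicate 2 was the highest for 0 of 10 (24.8%). The highest and the lowest array of each gene were the same after quantile normalization, median centring and cyclic loess. Several of these places were narrow, as in Ier2, where replicates 3 and 1 differed by 0.01, and in Zfp36, where replicates 4 and 3 differed by 0.02.

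**Figure D3:**
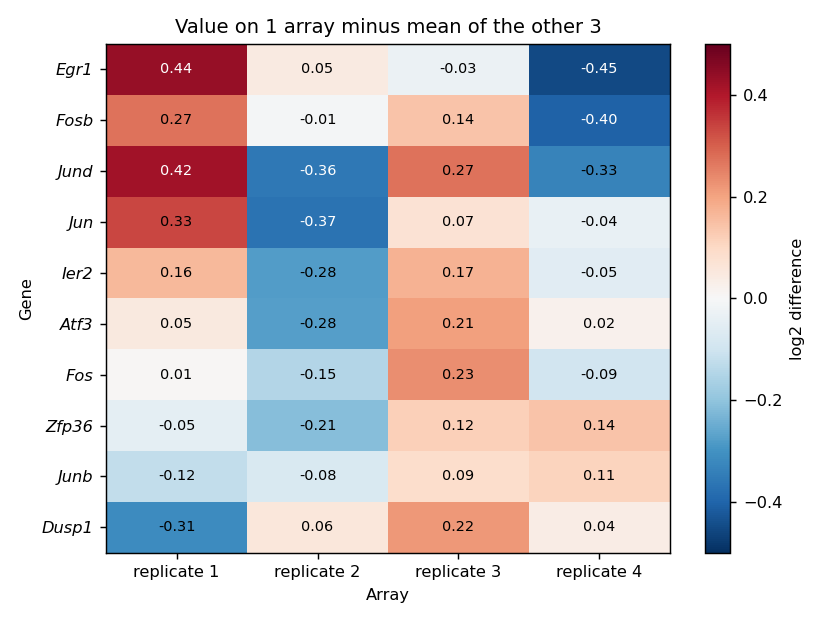
Shift of each immediate early gene (vertical axis) on each array (horizontal axis), the log2 value on that array minus the mean of the other 3; red is higher and blue lower, with the value in each cell. The replicate 1 column runs from 0.44 in Egr1 to -0.31 in Dusp1, and the replicate 3 column is above 0 in every gene but Egr1.

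The genes differed most on replicate 1. There Egr1 had a shift of 0.44, Jund of 0.42, Jun of 0.33 and Fosb of 0.27 on the log2 scale, whereas Dusp1 had a shift of -0.31 and Junb of -0.12. On replicate 4 Egr1 (-0.45), Fosb (-0.40) and Jund (-0.33) were the lowest, and Zfp36 (0.14) and Junb (0.11) the highest. As a measure of likeness, the root mean square difference between 2 genes' values, each centred on its own mean over the 4 arrays, was taken for the 45 pairs. It ran from 0.05 to 0.35 with a median of 0.17. The closest pairs were Ier2 with Atf3 at 0.05, Junb with Zfp36 at 0.06 and Fos with Atf3 at 0.07. The farthest were Egr1 and Jund, each with Dusp1, both at 0.35. Within the families, Jun and Jund at 0.14 and Fos and Fosb at 0.16 lay below the median of the pairs. Jun and Junb at 0.21 and Junb and Jund at 0.29 lay above it.

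Of 4722 other genes above background with a range of at least 0.3, the 5 nearest to the median profile of the immediate early genes over these 4 arrays were Map3k2, a MAP kinase kinase kinase, at a root mean square difference of 0.02, Sptan1, the non-erythroid alpha spectrin, Scp2, Tulp4 and Ptms at 0.03 each. The 5 nearest to Egr1 were Atp13a2 at 0.01, Jakmip1, Gpam and Myo1e at 0.02, and Rgmb at 0.03. With 4 points a profile can be matched closely by many genes, and the names describe these arrays.

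Other immediate early genes were followed on a longer list. Of 45 such genes, all represented on the array, 40 lay above background, where 63.5% of all genes did. Fosl1, Nr4a3, Dusp4, Plk2 and Maff did not pass. A range of at least 0.5 was reached by 16 of the 40, beside 11.5% of all genes. Their median shift was 0.22 on replicate 1 with 28 of 40 higher (52.2% of all genes) and -0.11 on replicate 2 with 28 of 40 lower (50.2%). It was 0.07 on replicate 3 with 28 of 40 higher (52.3%) and -0.13 on replicate 4 with 31 of 40 lower (54.5%). Replicate 1 was the highest array for 23 of the 40, where it was the highest for 33.2% of all genes above background. The widest ranges belonged to Ptgs2, the inducible cyclooxygenase, at 6.85, 7.97, 7.73 and 7.32 on replicates 1 to 4, Sik1, a salt-inducible kinase, at 10.86, 9.94, 10.03 and 9.79, Nfkbia, the inhibitor of NF-kB, at 10.48, 9.63, 10.03 and 9.53, and Dusp2, a phosphatase of lymphoid cells, at 8.75, 8.34, 8.10 and 7.86. Replicate 1 was thus the highest array for Sik1, Nfkbia and Dusp2 and the lowest for Ptgs2.

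The partners and regulators of the immediate early genes had smaller median ranges than the 10 genes themselves, a difference that was not tested. Of all genes, 63.5% lay above background and 11.5% of those had a range of at least 0.5, shares to be read beside each count here. All 22 other basic leucine zipper genes with a probe set were above background, and 4 had such a range. These were Bach2, a B-cell repressor, at 1.20, Crem, a CREB relative, at 0.64, Maf at 0.60 and Nfe2, of erythroid and megakaryocytic cells, at 0.50. Of 24 genes of the MAP kinase modules, SRF and its partners, all above background, 3 reached a range of at least 0.5: Mapk11, a p38 kinase, at 0.95, Map3k8 at 0.60 and Map3k5 at 0.54, with Mrtfa, an SRF coactivator, next at 0.44. Of 9 other dual-specificity phosphatases, 1 reached it, Dusp10 at 1.04, followed by Dusp22 at 0.41, Dusp8 at 0.40 and Dusp7 at 0.25. Among 14 factors of AU-rich element binding and messenger RNA decay above background it was Tia1 alone at 0.52, followed by Parn at 0.30, Cnot8 at 0.24 and Khsrp at 0.23. The median ranges of these 4 lists were 0.28, 0.27, 0.24 and 0.17, against 0.25 over all genes.

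Heat shock genes, a further mark of handling stress, were followed in the same way. All 11 with a probe set of their own lay above background (63.5% of all genes did). Of these, 2 had a range of at least 0.5 (11.5% of all genes), and their median range was 0.25, that of all genes. Their median shift lay between -0.11 and 0.02 over the arrays. Hsph1, a co-chaperone, had log2 values of 9.74, 9.23, 9.36 and 8.97, Hspe1, the mitochondrial co-chaperonin, 11.83, 12.11, 11.60 and 11.99, Dnajb1, an inducible co-chaperone, 9.27, 9.22, 9.46 and 9.09, and Dnaja1 11.05, 10.78, 10.74 and 10.69. Hsph1 and Dnaja1 were highest on replicate 1 and Dnajb1 on replicate 3, so the heat shock genes had no array in common at the top.

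Some marker lists shifted over the same arrays by more than the immediate early genes did. Of all genes above background, 52.2% were higher on replicate 1, 50.2% lower on replicate 2, 52.3% higher on replicate 3 and 54.5% lower on replicate 4. The median shift of the early B-cell markers was 0.59 on replicate 1 (14 of 16 higher) and -0.53 on replicate 4 (12 of 16 lower), with -0.19 and 0.12 on replicates 2 and 3, and for the 8 markers of pre-B and immature B cells it was 0.56 on replicate 1 (7 of 8 higher) and -0.67 on replicate 4 (7 of 8 lower), with -0.01 and 0.09 on replicates 2 and 3. The median over the immediate early genes had the same signs on the 4 arrays, as did that of several other lists, among them the other immediate early genes, heat shock genes, and mast cell and plasmacytoid dendritic cell markers. Some of these signs rested on values near 0. The heat shock median on replicate 1, 0.009, was -0.013, -0.025 and -0.017 after quantile normalization, median centring and cyclic loess. The pre-B median on replicate 2 was 0.0004 after cyclic loess. The share of all genes with these signs was not taken. Replicate 1 was the highest array for 4 of the 10 genes, Egr1, Fosb, Jun and Jund (33.2% of all genes). Replicate 4 was the lowest for 2 of the 10, Egr1 and Fosb (28.1%), the genes nearest to background. Both counts lie near the shares of all genes, so they do not set the 10 genes apart. For granulocyte and monocyte markers the median shift was -0.26 on replicate 2 (15 of 17 lower), 0.17 on replicate 3 (13 of 17 higher) and 0.19 on replicate 4 (14 of 17 higher), beside -0.02 on replicate 1. Without replicate 2 the values on replicates 3 and 4 were 0.08 and 0.05. Zfp36 had shifts of -0.21, 0.12 and 0.14 on replicates 2 to 4, and Junb of -0.08, 0.09 and 0.11. Atf3 had the same signs there, at -0.28, 0.21 and only 0.02, and the rest of the 10 genes did not. The share of all genes with these signs was not taken, so the match has no comparison. The mean log2 level of the granulocyte and monocyte list ran from 11.34 on replicate 2 to 11.79 on replicate 3, and that of the early B-cell list from 10.09 on replicate 4 to 10.93 on replicate 1. The part of either cell type in the values of the immediate early genes was not tested.

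Erythroid markers shifted most, with a median of -1.31 on replicate 1 (12 of 12 lower). Their mean level was 9.02 there and 10.28 to 10.50 on the other arrays. Of the 10 immediate early genes, 2 were lowest on replicate 1, Dusp1 and Junb (29% of all genes were), and 4 were highest there (33.2%). Neither count sets the 10 genes apart from all genes. Among the smaller lists, mast cell and basophil markers (4 of 7 above background, with Fcer1a, Ms4a2 and Mcpt4 not passing) had median shifts of 0.15, -0.33, 0.26 and -0.22 on replicates 1 to 4. Megakaryocyte and platelet markers (5 of 5) had 0.28, 0.22, -0.07 and -0.41, plasmacytoid dendritic cell markers (8 of 8) 0.14, -0.06, 0.04 and -0.21, and plasma cell markers (7 of 7) 0.09, 0.03, 0.02 and -0.06. T and NK cell markers (8 of 12, with Cd3d, Cd8b1, Gzma and Gzmb not passing) had -0.10, -0.05, -0.01 and 0.09. Stromal and endothelial markers (6 of 10) had -0.12, 0.07, 0.02 and -0.02. Of all genes 63.5% passed. The mast cell, T and NK cell and stromal counts lay near that share, so they do not show that such cells were present. The full counts of the megakaryocyte, plasmacytoid dendritic cell and plasma cell lists do not show it by themselves either. For example, Spib is in both the plasmacytoid dendritic cell and the pre-B list. The 9 housekeeping genes had shifts of -0.03, -0.03, 0.03 and 0.04 and no range above 0.27. The part of these cells in the values of the immediate early genes was not tested.

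**Figure D4:**
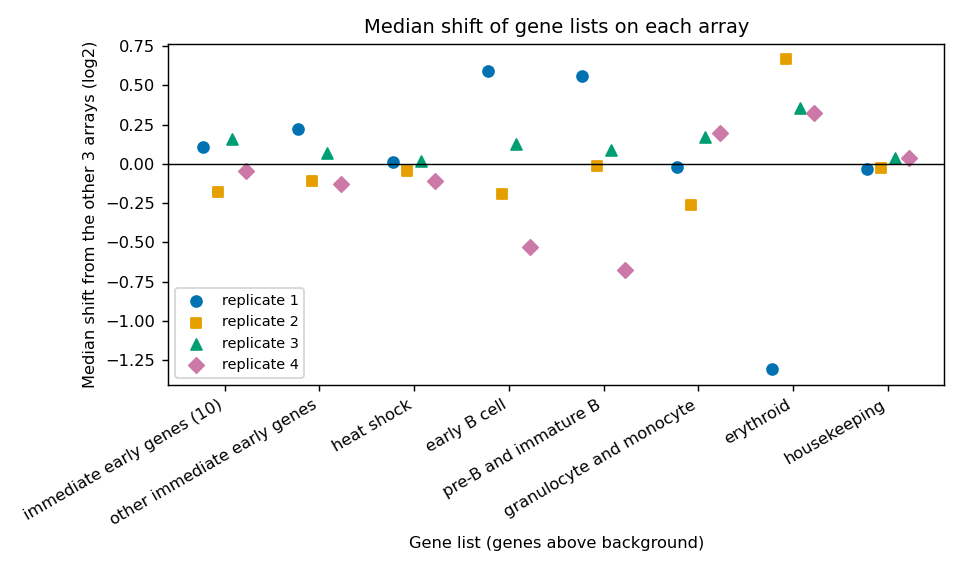
Median shift of 8 gene lists (horizontal axis) on each array, measured from the remaining 3 arrays on the log2 scale (vertical axis); each point is the median over the genes of a list above background. The immediate early genes lie between -0.18 and 0.16, the erythroid markers reach -1.31 on replicate 1, and the housekeeping genes stay between -0.03 and 0.04.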

How the data were processed

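The authors deposited 1 log2 intensity for each probe set and array (Affymetrix Mouse Gene 1.0 ST). According to the methods these were background-corrected and normalized by RMA. A later filter on low expression is named there without its threshold, and the deposited table still holds the silent receptor probe sets. The set of arrays normalized together and the genome build are not stated in the labels or the methods. RMA evens out signal common to a whole array. Of 34760 probe sets, 21640 have 1 gene symbol in the platform annotation, 1321 several and 11799 none listed; only the first were used, and a gene with several was given by the one with the highest mean. The number of arrays limits the precision. The columns were matched to samples by name.

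The shift is the difference between 1 array and the mean of the remaining 3, and the range is highest minus lowest. No test between conditions was run, since all samples belong to 1 group; Dixon's ratio, against its 95% critical value for 4 arrays, was computed for each named gene. The members and lists were chosen with earlier results of these data known. Named genes were the 10 members, the 4 with the largest range of each pathway list and the 5 nearest in profile; marker lists are given by counts. Shift and range were tested on simulated data. Alternatives were other background lines, quantile normalization, median centring and cyclic loess (limma 3.58.1 in R 4.3.3), the mean over probe sets, and leaving out each array. Other steps used Python 3.11.15 with pandas 2.3.3 and numpy 2.4.6, and figures matplotlib 3.10.9. Promoters are from RefSeq, GRCm38.p6.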

Additional observations from a re-analysis of the deposited data

Results flagged for a closer look

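By Dixon's ratio, at its 95% critical value for 4 arrays, 0 of the 10 immediate early genes had 1 array far from the other 3. Among all 44 named genes, 1 did, Dusp8, a phosphatase of MAP kinases, with a log2 value of 7.02 on replicate 1 against 7.36 to 7.41 on the other arrays. Chance flags about 1 in 20 freely chosen genes, and 5.39% of all genes above background passed the critical value. Most of the named genes were chosen by their range or their profile over these arrays, so the chance share does not apply to them as a set.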

How the results depend on the processing

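No paired analysis was possible because the 4 arrays are 1 group. The count of immediate early genes with a range of at least 0.5 was the value that moved most, from 4 to 2 with quantile normalization, median centring or cyclic loess, and to between 0 and 4 over the fits that leave out 1 replicate each (0 without replicate 1, 2 without replicate 4). The count above background was 8 with the 99th percentile line, 7 with the array median as the line and 10 in the others. Of those others, only quantile normalization and cyclic loess could have lowered it. Leaving out an array, the looser 90th percentile line and the mean over probe sets, with 1 for each gene, could not. The share of all genes was not taken at the 99th percentile and array median lines. Leaving out each replicate gave a median SD of 0.13 to 0.19 and median shifts of the immediate early genes of 0.02 to 0.19 on replicate 1, -0.20 to -0.14 on replicate 2, 0.11 to 0.23 on replicate 3 and -0.16 to -0.01 on replicate 4. For the marker lists some shifts turned sign, because the mean of the others then holds other arrays: early B-cell markers ran from -0.51 to 0.058 on replicate 2 and from -0.18 to 0.31 on replicate 3, erythroid markers from -0.12 to 0.63 on replicate 3 and from -0.12 to 0.60 on replicate 4, the negative erythroid values being those without replicate 1. Granulocyte and monocyte markers were at 0.08 and 0.05 on replicates 3 and 4 without replicate 2. Signal over background limits what Fosb and Egr1 can show.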
